A study of Mus musculus with 25 samples.

Results

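The 9 genes described here are the estrogen receptors Esr1, Esr2 and Gper1, the progesterone receptor Pgr, the glucocorticoid receptor Nr3c1, the mineralocorticoid receptor Nr3c2, the receptor cochaperone Fkbp5 and the 5-alpha reductases Srd5a1 and Srd5a2. They were chosen by gene symbol because di-(2-ethylhexyl) phthalate (DEHP), the plasticizer under study, is an antiandrogenic endocrine disruptor. They are 9 of the 24358 genes in the table of estimated counts, and each of them had a valid value in all 5 conditions. RNA was measured by all-RNA-seq, a protocol that makes RNA ends uniform before adapter ligation, in sperm of 25 male mice aged 14 weeks.

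Pregnant dams received corn oil vehicle (CTL) or DEHP at 300 mg/kg/day (D300) by mouth on embryonic days 9 to 19. In the C57BL/6J strain, the first-generation sons of vehicle dams are called vehicle C57BL/6J (C57.CTL.F1 in the plots) and those of DEHP dams DEHP C57BL/6J (C57.D300.F1). In the FVB/N strain the corresponding sons are DEHP FVB/N (FVB.D300.F1) and vehicle FVB/N (FVB.CTL.F1). Second-generation C57BL/6J males (C57.D300.F2), called F2 C57BL/6J, were sired by DEHP-exposed F1 males with unexposed females. The design of the study has no F2 vehicle group. Each condition holds 5 libraries, which the deposited table combines into 1 value per gene, so no test between conditions was possible, and the spread over single mice is not shown.

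Steroid receptors of the nuclear family are transcription factors that bind a hormone inside the cell and then bind DNA, whereas Gper1 is a G protein-coupled receptor of the cell membrane. Hsp90, Hsp70 and their cochaperones hold the unliganded receptors ready for hormone, and Fkbp5 belongs to that complex, lowers the affinity of the glucocorticoid receptor for its ligand and is itself a classical glucocorticoid target. The 5-alpha reductases convert testosterone into the more potent androgen dihydrotestosterone, and both are known from the epididymis. Esr1 is required in the efferent ducts for fluid resorption before sperm enter the epididymis.

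The sequences upstream of the reductases are shown because these genes took opposite directions over the conditions. Each is the RefSeq promoter window of 300 bases on build GRCm38.p6, which ends 50 bases past the annotated start site, and capitals mark the GC box GGGCGG. The Srd5a1 window lies at chr13:69611414-69611713 and the Srd5a2 window at chr17:74047811-74048110, both on the minus strand.
Srd5a1: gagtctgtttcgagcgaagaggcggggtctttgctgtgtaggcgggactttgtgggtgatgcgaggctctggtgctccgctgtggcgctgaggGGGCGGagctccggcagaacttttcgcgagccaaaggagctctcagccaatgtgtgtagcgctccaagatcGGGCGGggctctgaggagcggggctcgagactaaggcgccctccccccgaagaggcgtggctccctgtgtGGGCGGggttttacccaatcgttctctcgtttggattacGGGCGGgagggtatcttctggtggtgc
Srd5a2: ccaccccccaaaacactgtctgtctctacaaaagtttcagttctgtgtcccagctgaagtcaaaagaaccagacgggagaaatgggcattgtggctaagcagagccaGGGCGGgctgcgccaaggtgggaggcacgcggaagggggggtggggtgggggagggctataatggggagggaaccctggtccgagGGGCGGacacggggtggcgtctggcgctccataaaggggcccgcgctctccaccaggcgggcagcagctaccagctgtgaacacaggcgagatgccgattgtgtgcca

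Both reductase windows held the GC box. The Srd5a1 window had 24 CpG and 4 GC boxes, and the Srd5a2 window had 15 CpG and 2 GC boxes, against a median of 7 CpG and quartiles of 3 and 20 over 32851 RefSeq windows of that length, so of these reductase windows that of Srd5a1 lay above the upper quartile and that of Srd5a2 below it. The GC box, GGGCGG or CCGCCC, occurred in 35.7% of all windows. RefSeq windows were held for 8 of the 9 genes, 9 windows in all because Esr1 had 2, and the Nr3c1 window was not held. The steroid receptor half-site TGTTCT or AGAACA occurred in 0 of these 9 windows and in 19.0% of all windows. The shorter estrogen receptor half-site GGTCA or TGACC was found in windows of Esr1, Esr2 and Nr3c2, and in 40.5% of all windows. TATAAA or TTTATA was found for Gper1 and Pgr, and in 13.6% of all windows. These are letter matches in a short window only.

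The counts are Cuffdiff estimates on a common scale and are not divided by gene length. Their errors below are SDs under Cuffdiff's model, the square root of the deposited variance, not SDs between libraries. The counts of all genes summed to between 6921688 and 8602900 per condition. A ratio was formed where at least 1 of the compared conditions had 10 counts, with 1 count added on the log2 scale, and a gene was said to pass when its ratio reached 1 log2 unit. This addition understates the ratio of low genes such as Gper1 and Pgr. A difference is called larger than its SD when it exceeds the SD of the difference under the same model.

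The labelled material, sperm, was checked against marker lists. All 11 sperm and spermatid markers had over 10 counts in every condition, but their summed count was 96062 in vehicle C57BL/6J, 80664 in DEHP C57BL/6J, 32536 in F2 C57BL/6J, 8258 in vehicle FVB/N and 9869 in DEHP FVB/N. Markers of other tissues were present beside them. Seminal vesicle markers summed to 238142 in vehicle C57BL/6J and to between 695 and 2137 elsewhere, prostate markers to 15761 there and between 1044 and 1841 elsewhere, and liver markers to 216323 in vehicle C57BL/6J, 183086 in DEHP C57BL/6J and between 864 and 4961 in the rest. The 11 epididymal markers with values in all conditions, of which the study itself picked several, summed to 40939 in DEHP FVB/N and to between 201 and 295 elsewhere. The listed marker left out of that sum, Crisp1, an epididymal secretory protein gene, had 108274 counts in vehicle C57BL/6J and 219328 in DEHP FVB/N and no valid value in the other 3 conditions. In such bulk samples fewer cells of a type and less RNA per cell cannot be told apart. The libraries of vehicle C57BL/6J and DEHP C57BL/6J were 10 reused ones and the other 15 were made for the study, so a contrast between these sets cannot be told apart from the set of libraries.

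Srd5a2, the reductase isoenzyme of the male reproductive tract, varied most widely of the 9 genes. Its counts were 47.7 ± 14.7 in vehicle C57BL/6J, 41.6 ± 13.5 in DEHP C57BL/6J, 94.3 ± 26.5 in F2 C57BL/6J, 70.1 ± 20.2 in vehicle FVB/N and 223 ± 75.1 in DEHP FVB/N. DEHP FVB/N stood above every other condition, F2 C57BL/6J came next, and both C57BL/6J F1 conditions were low. The highest value was 5.36 times the lowest. The gene (ENSMUSG00000038541) lies on chromosome 17 at 74016955 to 74047916 in GRCm38 and carries the promoter window with 2 GC boxes. A processed transcript on the same strand, CT025731.1, overlaps Srd5a2, and its part in the Srd5a2 values was not tested.

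Srd5a1, the isoenzyme with the broader tissue distribution, ran the other way between the reused and the newly made libraries. Its counts were 197 ± 58.2 in vehicle C57BL/6J, 179 ± 56.6 in DEHP C57BL/6J, 60.4 ± 18.3 in F2 C57BL/6J, 87.1 ± 24.8 in vehicle FVB/N and 89.0 ± 24.1 in DEHP FVB/N. The reused C57BL/6J F1 conditions were high and the 3 newly made conditions were low. The gene (ENSMUSG00000021594) lies on chromosome 13 at 69573449 to 69611442 and is covered over its whole length by Nsun2, an RNA methyltransferase gene on the opposite strand. Nsun2 counts were 1137, 909, 614, 665 and 653 in the same order of conditions, so the partner was also highest in the C57BL/6J F1 conditions, over a narrower range. Reads were mapped with a strand option, but whether the counting used strand is not given in the sources used here, and the part of Nsun2 in the Srd5a1 values was not tested.

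Per kilobase of merged exons, which allows levels of different genes to be compared, the balance of the reductases turned over between conditions. The level of Srd5a2 was 0.439 ± 0.188 times that of Srd5a1 in vehicle C57BL/6J and 0.420 ± 0.190 times in DEHP C57BL/6J. It was 2.83 ± 1.17 times that of Srd5a1 in F2 C57BL/6J, 1.46 ± 0.591 times in vehicle FVB/N and 4.54 ± 1.97 times in DEHP FVB/N. Srd5a1 thus led in the reused libraries and Srd5a2 in the newly made ones, although in vehicle FVB/N the ratio was within its SD of 1.

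**Figure D1:**
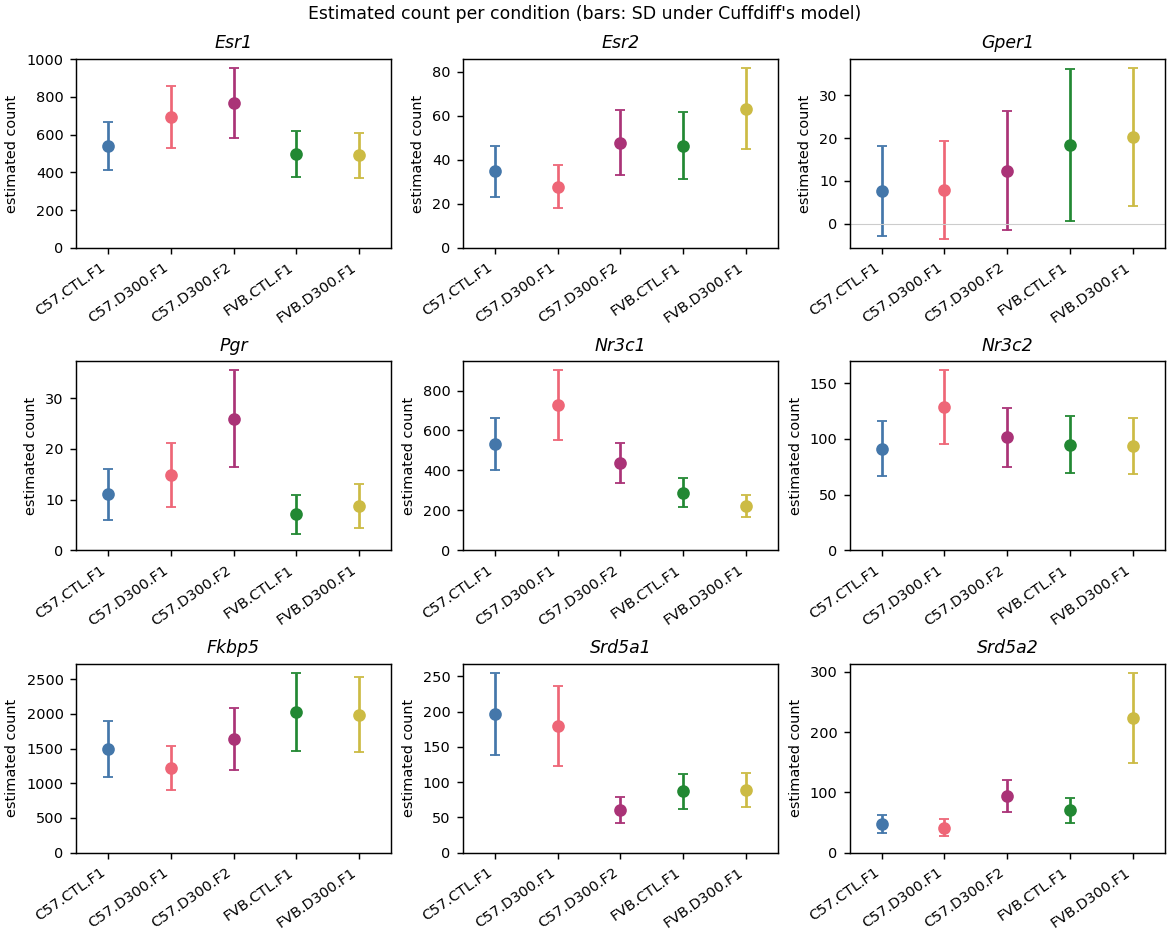
Estimated count of each gene (vertical axes, linear, each with its own range) in the 5 conditions, 1 combined value each with the SD under Cuffdiff's model as a bar. Srd5a2 stands out in DEHP FVB/N at 223, Srd5a1 is high only in the C57BL/6J F1 conditions, and the bars of Gper1 reach 0 or nearly so.

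Esr1, the main nuclear estrogen receptor of the male tract, was among the abundant receptors with a narrow range. Its counts were 539 ± 128 in vehicle C57BL/6J, 693 ± 165 in DEHP C57BL/6J, 767 ± 187 in F2 C57BL/6J, 498 ± 120 in vehicle FVB/N and 490 ± 121 in DEHP FVB/N. F2 C57BL/6J was highest and the FVB/N conditions were lowest, with an overall range of 1.56-fold. The sum of the smooth muscle and connective tissue markers had its conditions in the same order, at 48611, 53091, 55701, 43638 and 34633, and its part in the Esr1 values was not tested. Within that list the 5 muscle genes had their highest counts in vehicle C57BL/6J instead. Esr1 (ENSMUSG00000019768) lies on chromosome 10 at 4611593 to 5005614.

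Esr2, the second nuclear estrogen receptor, was far less abundant. Its counts were 34.8 ± 11.5, 27.8 ± 9.82 and 47.8 ± 14.9 in vehicle C57BL/6J, DEHP C57BL/6J and F2 C57BL/6J, and 46.4 ± 15.1 and 63.2 ± 18.5 in vehicle FVB/N and DEHP FVB/N. DEHP FVB/N was highest and DEHP C57BL/6J lowest. The level of Esr1 per kilobase was 3.82, 6.15, 3.95, 2.65 and 1.91 times that of Esr2 in the 5 conditions in the order above, so Esr1 led in all of them. Per kilobase of the longest transcript the multiple was larger, 8.21, 13.2, 8.51, 5.69 and 4.12. Esr2 lies on chromosome 12 at 76120419 to 76177259.

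Gper1, the membrane estrogen receptor, was close to the limit of what these libraries resolve. Its counts were 7.63 ± 10.5, 7.87 ± 11.5 and 12.4 ± 14.0 in vehicle C57BL/6J, DEHP C57BL/6J and F2 C57BL/6J, and 18.4 ± 17.8 and 20.3 ± 16.2 in vehicle FVB/N and DEHP FVB/N. The SD was larger than the value in all 3 C57BL/6J conditions. Gper1 (chromosome 5, 139423151 to 139427800) is overlapped on the opposite strand by 3110082I17Rik, with counts of 28.4 to 44.1, and the part of that gene was not tested.

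Pgr, a classical estrogen-induced gene in the female tract, was the other scarce receptor. Its counts were 11.0 ± 5.10, 14.9 ± 6.32 and 25.9 ± 9.54 in vehicle C57BL/6J, DEHP C57BL/6J and F2 C57BL/6J, and 7.12 ± 3.87 and 8.71 ± 4.36 in vehicle FVB/N and DEHP FVB/N. As for Esr1, F2 C57BL/6J was highest and the FVB/N conditions lowest. Its range of 3.64-fold rests on few counts. Pgr lies on chromosome 9 at 8899833 to 8968611.

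Nr3c1, the glucocorticoid receptor, had the widest range among the abundant receptors. Its counts were 532 ± 131 in vehicle C57BL/6J, 725 ± 175 in DEHP C57BL/6J, 438 ± 101 in F2 C57BL/6J, 288 ± 72.3 in vehicle FVB/N and 222 ± 54.9 in DEHP FVB/N. DEHP C57BL/6J was highest and the FVB/N conditions lowest, 3.26-fold apart at the extremes. The leukocyte markers summed to 7786, 11342, 5685, 2866 and 2957 in that order, with DEHP C57BL/6J highest and the FVB/N conditions lowest as well, and their part in the Nr3c1 values was not tested. All 8 leukocyte markers were above 3 counts in every condition.

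Nr3c2, the mineralocorticoid receptor, which binds aldosterone and glucocorticoids, had the narrowest range, 1.41-fold. Its counts were 91.3 ± 24.6, 128 ± 33.1 and 101.3 ± 26.9 in vehicle C57BL/6J, DEHP C57BL/6J and F2 C57BL/6J, and 94.7 ± 25.5 and 93.6 ± 25.2 in vehicle FVB/N and DEHP FVB/N. Only DEHP C57BL/6J stood a little above the rest. Per kilobase the level of Nr3c1 was 4.91, 4.76, 3.64, 2.57 and 2.00 times that of Nr3c2 in the 5 conditions. Nr3c2 lies on chromosome 8 at 76899442 to 77245012.

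Fkbp5 was the most abundant of the 9 genes. Its counts were 1495 ± 397 in vehicle C57BL/6J, 1219 ± 312 in DEHP C57BL/6J, 1638 ± 447 in F2 C57BL/6J, 2029 ± 564 in vehicle FVB/N and 1992 ± 542 in DEHP FVB/N. The FVB/N conditions were highest and DEHP C57BL/6J lowest, which is the reverse of Nr3c1 at both ends. Per kilobase Fkbp5 was at 2.28 ± 0.824, 1.36 ± 0.480 and 3.04 ± 1.09 times the level of Nr3c1 in vehicle C57BL/6J, DEHP C57BL/6J and F2 C57BL/6J. The multiple was 5.71 ± 2.14 in vehicle FVB/N and 7.28 ± 2.68 in DEHP FVB/N. Per kilobase of the longest transcript it ran from 2.80 in DEHP C57BL/6J to 15.0 in DEHP FVB/N. Fkbp5 lies on chromosome 17 at 28399094 to 28517527, where 15 transcripts are annotated, so its merged exons of 9468 bases are longer than its longest transcript of 3858 bases.

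The order of levels per kilobase was headed by Fkbp5 in all 5 conditions, at 129 to 214 counts per kilobase, and closed by Gper1 and Pgr. In vehicle C57BL/6J it was followed by Nr3c1 at 69.3, Srd5a1 at 67.7, Esr1 at 39.4, Srd5a2 at 29.7, Nr3c2 at 14.1, Esr2 at 10.3, Gper1 at 3.01 and Pgr at 1.29 counts per kilobase. The neighbours Nr3c1 and Srd5a1, Esr1 and Srd5a2, Nr3c2 and Esr2, and Gper1 and Pgr did not differ by more than the SD of their difference. In DEHP FVB/N Srd5a2 stood in the second place at 139 counts per kilobase, within the SD of Fkbp5 at 210, and Nr3c1 in the fifth at 28.9. Per kilobase of the longest transcript Esr1 stood second in vehicle C57BL/6J at 85.0, ahead of Nr3c1 at 82.7 and Srd5a1 at 74.4. The transcripts in use were not measured.

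**Figure D2:**
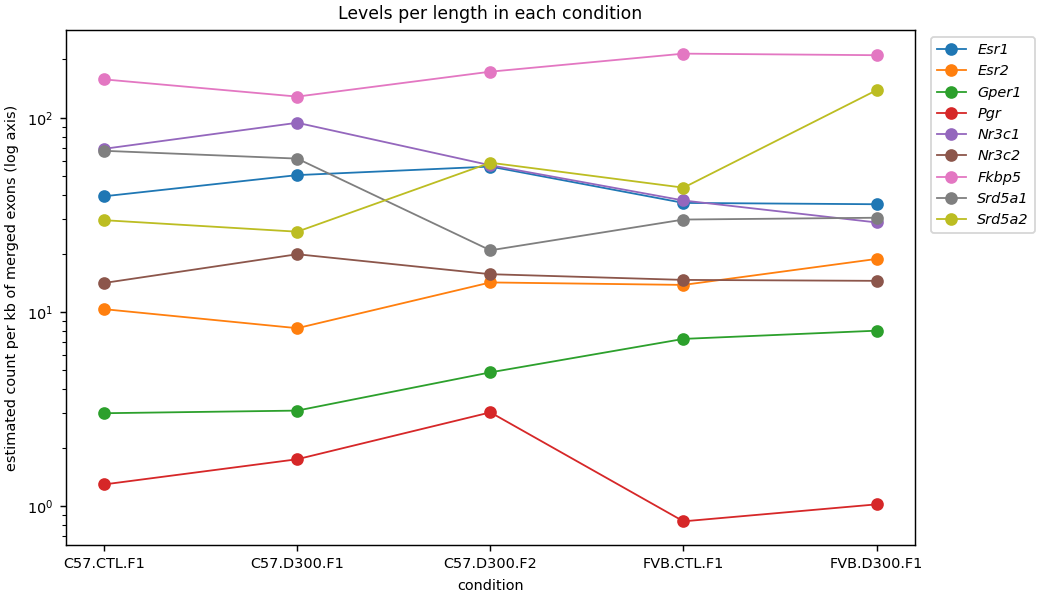
Estimated count per kilobase of merged exons (vertical axis, log scale) of the 9 genes in the 5 conditions, with lines that only join the values of a gene. Fkbp5 is on top throughout, the lines of Srd5a1 and Srd5a2 cross between DEHP C57BL/6J and F2 C57BL/6J, and Nr3c1 runs down from 94.4 in DEHP C57BL/6J to 28.9 in DEHP FVB/N.

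The first question of the design is whether sperm RNA differed after prenatal DEHP in C57BL/6J. None of the 8 genes with enough counts passed 1 log2 unit between DEHP C57BL/6J and vehicle C57BL/6J, and 0 of 8 differences were larger than their SD. Over all 16825 genes with a ratio, 1.09% passed upwards, 1.15% passed downwards and 6.57% differed by more than their SD. The values nearest to the limit were those of the corticosteroid receptors, with log2 ratios of 0.49 for Nr3c2 and 0.45 for Nr3c1, followed by 0.40 for Pgr and 0.36 for Esr1. Ratios were below 0 for Esr2 at -0.32, Fkbp5 at -0.29, Srd5a2 at -0.19 and Srd5a1 at -0.13, the last of which turned to 0.02 when every condition was brought to an equal total. The median of the 8 ratios was 0.11, against -0.01 over all genes. Seminal vesicle markers differed between these conditions from 238142 to 695 and leukocyte markers from 7786 to 11342 in sum, and their part in these ratios was not tested.

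In FVB/N the same comparison gave 1 gene past the limit. Srd5a2 was 3.18-fold higher in DEHP FVB/N than in vehicle FVB/N, a log2 ratio of 1.66, and the difference of 153 counts was larger than its SD of 77.8. Over 16471 genes 2.16% passed upwards, 0.619% passed downwards and 5.65% differed by more than their SD, and 0.941% had a ratio at least as far from 0 as Srd5a2. The other 7 genes with a ratio ranged from -0.37 for Nr3c1 to 0.44 for Esr2, none larger than its SD, and the ratios of Srd5a1, Esr1, Nr3c2, Fkbp5 and Gper1 lay between -0.03 and 0.13. The epididymal markers, several of which the study itself picked from these data, rose between the same conditions from a sum of 201 to 40939. All 11 with a ratio passed, where 2.16% of all genes passed upwards. Only 5 of the 11 reached the minimum count in vehicle FVB/N. The others had a ratio only through their counts in DEHP FVB/N, so the minimum itself favoured their passing. Gpx5, an epididymal secreted peroxidase, went from 71.4 to 24121 counts, and Adam28 went from 19.1 to 1612. Crisp1 had no valid value in vehicle FVB/N. Of 4 prostate and coagulating gland markers with a ratio, 2 also passed upwards, Pbsn with 0.56 and 18.4 counts and Tgm4 with 33.9 and 75.1 counts, although the sum of that list was lower in DEHP FVB/N. Both were higher still in F2 C57BL/6J, at 62.7 and 199.6 counts, where Srd5a2 was second highest. The part of these markers in the Srd5a2 values was not tested.

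The strains were then compared in their response, as the log2 ratio in FVB/N minus that in C57BL/6J. Srd5a2 had a difference of 1.85 ± 0.895 and was the only one of 9 genes to pass. Upwards 4.45% of 17556 genes passed, downwards 2.92%, and 6.97% differed by more than their SD. Nr3c1 had a difference of -0.82 ± 0.708, larger than its SD but short of the limit, and it reached -1.10 with equal totals. Nr3c1 was thus the only other gene past its SD, with 725 against 532 counts in C57BL/6J and 222 against 288 in FVB/N. Esr2 followed at 0.75 ± 0.917, within its SD. Each strain contrast stays within 1 set of libraries, but neither was tested over libraries.

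**Figure D3:**
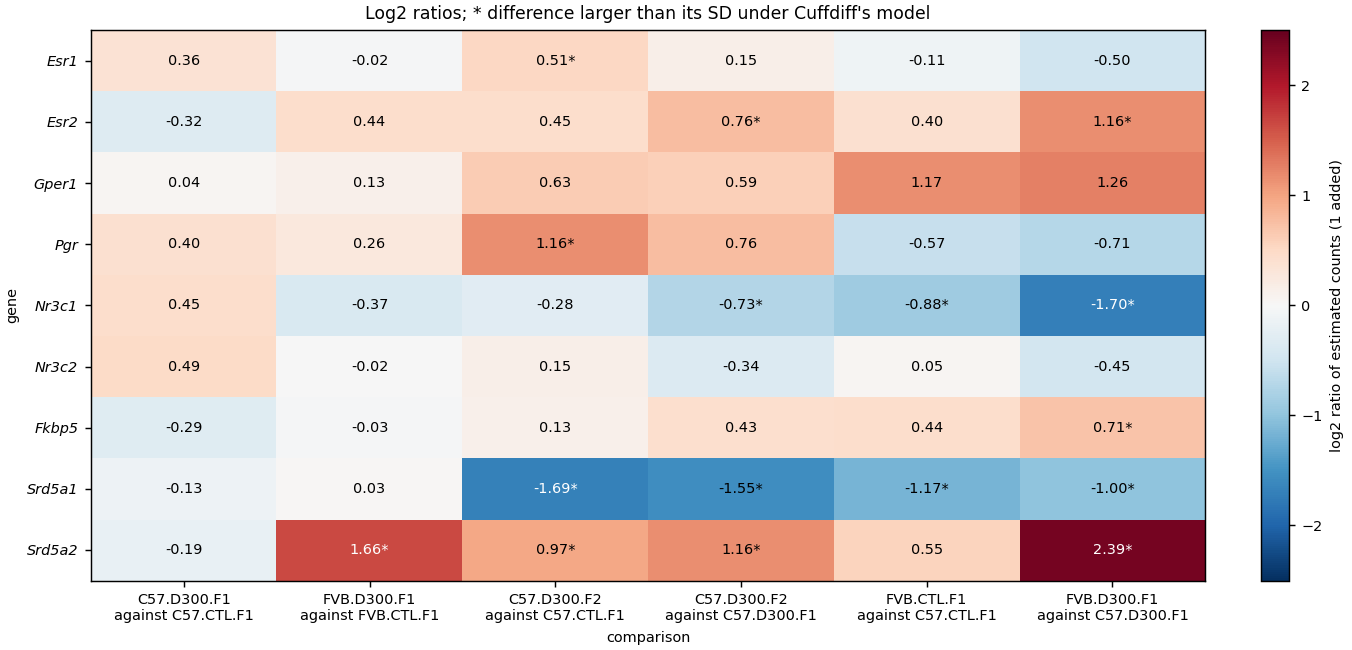
Log2 ratios of the 9 genes (rows) in 6 comparisons (columns), coloured from blue (lower in the first-named condition) to red (higher), starred where a difference is larger than its SD. The column of DEHP in C57BL/6J has no star, that of DEHP in FVB/N has 1 at Srd5a2 (1.66), and the later columns carry 2 to 5.

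The second generation was compared with both C57BL/6J F1 conditions, so that both comparisons share the F2 libraries. Against vehicle C57BL/6J, Srd5a1 was 3.26-fold lower in F2 C57BL/6J, a log2 ratio of -1.69, and Pgr was 2.35-fold higher, a log2 ratio of 1.16. These were the 2 of 9 genes that passed, 1 in each direction, where 4.10% of 17114 genes passed upwards and 10.2% downwards. The Pgr ratio was 0.77 with 10 counts added instead of 1. Srd5a2, at 0.97, stayed just short of the limit and reached 1.28 with equal totals. Differences were larger than their SD for Esr1, Pgr, Srd5a1 and Srd5a2, 4 of 9 genes, against 26.9% of all genes. The difference of Esr1 was 228 counts with an SD of 226. Nr3c1 was at -0.28, which turned to 0.03 with equal totals.

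Against DEHP C57BL/6J the reductases again took opposite directions. Srd5a1 had a log2 ratio of -1.55 and Srd5a2 of 1.16, and both differences exceeded their SD, as did those of Esr2 at 0.76 and Nr3c1 at -0.73. Among 17133 genes 2.69% passed upwards, 8.35% passed downwards and 22.2% differed by more than their SD. Pgr was at 0.76, within its SD. Sperm markers were also lower in F2 C57BL/6J, by a sum of 32536 against 80664, and liver markers by 4961 against 183086, and their part in these ratios was not tested. Condition and set of libraries cannot be told apart here.

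Between the strains without DEHP, vehicle FVB/N against vehicle C57BL/6J, Srd5a1 passed downwards with a log2 ratio of -1.17 and Gper1 upwards with 1.17. The Gper1 difference of 10.8 counts was well within its SD of 20.6. Of 17086 genes 7.50% passed upwards, 18.8% downwards and 41.2% differed by more than their SD, so that such differences were common in this comparison. Besides Srd5a1, Nr3c1 differed by more than its SD, with a log2 ratio of -0.88. The Srd5a1 ratio was -0.98 with equal totals, short of the limit.

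With DEHP in both strains, DEHP FVB/N against DEHP C57BL/6J, 5 of 9 genes passed. Srd5a2 at 2.39, Gper1 at 1.26 and Esr2 at 1.16 were higher in FVB/N, and Nr3c1 at -1.70 and Srd5a1 at -1.0 were lower. In this comparison 12.0% of 17377 genes passed upwards, 19.9% downwards and 47.2% differed by more than their SD. With 10 counts added Esr2 was at 0.95 and Gper1 at 0.76, and Srd5a1 was at -0.86 with upper-quartile scaling. The SD was exceeded for Esr2, Nr3c1, Fkbp5, Srd5a1 and Srd5a2. Sperm markers summed to 9869 and 80664 in these conditions and leukocyte markers to 2957 and 11342, and their part was not tested.

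Because the strain comparisons cross the sets of libraries, both FVB/N conditions were also set against F2 C57BL/6J, whose libraries were likewise newly made, an alternative chosen after the values were known. Srd5a1 was then not lower in FVB/N, with log2 ratios of 0.52 for vehicle FVB/N and 0.55 for DEHP FVB/N, both within the SD. Nr3c1 remained lower at -0.60 and -0.98, and Pgr at -1.73 and -1.47, all larger than their SD. Esr1 had ratios of -0.62 and -0.64, also larger than their SD. Srd5a2 was at -0.42 for vehicle FVB/N, within its SD, and at 1.23 for DEHP FVB/N, larger than its SD. Both contrasts differ in generation and exposure as well as in strain. DEHP FVB/N males were sons of dosed dams and vehicle FVB/N males of vehicle dams, whereas the F2 males had exposed sires and unexposed mothers.

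**Figure D4:**
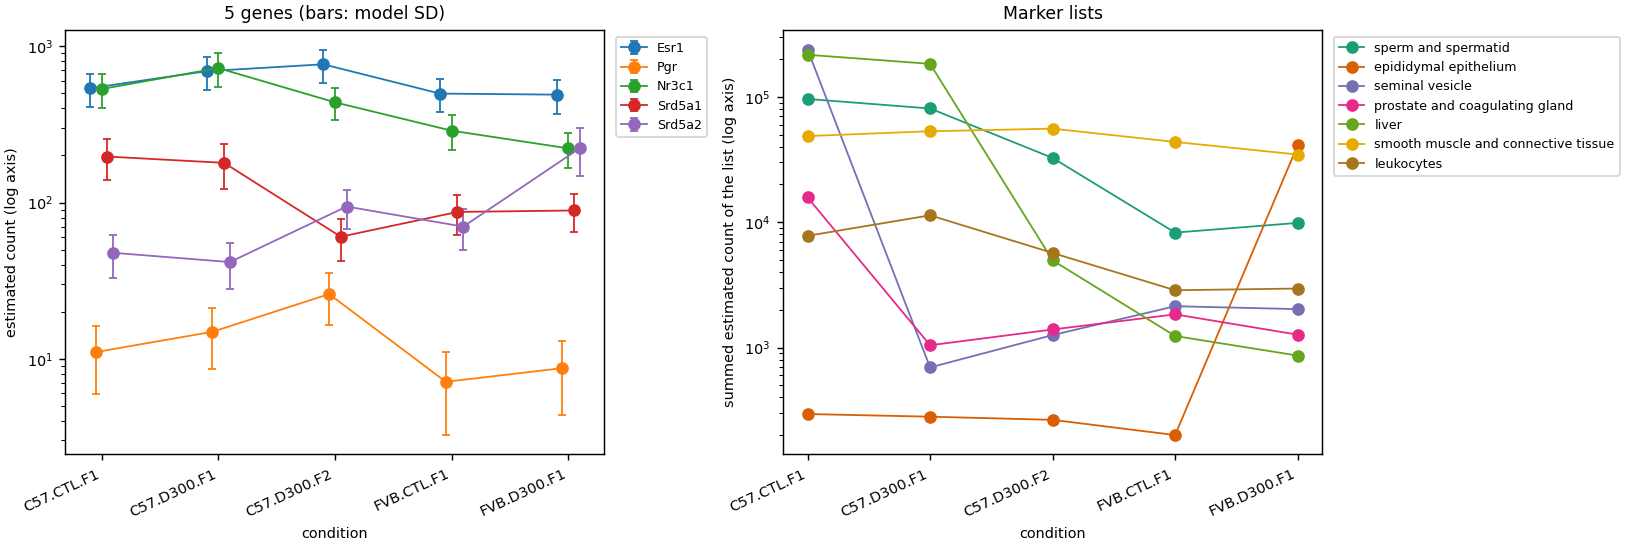
Left, estimated counts of Esr1, Pgr, Nr3c1, Srd5a1 and Srd5a2 (log axis, bars give the SD under Cuffdiff's model); right, summed estimated counts of 7 marker lists (log axis, the epididymal list without Crisp1) in the same conditions, with lines that only join values. The rise of Srd5a2 from 70.1 to 223 between the FVB/N conditions stands beside that of the epididymal list from 201 to 40939, and Srd5a1 is lower in the 3 conditions in which the sperm and liver lists are lower.

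Chaperones and coregulators are the partners of the nuclear receptors. Of 10 chaperones and immunophilins 0 passed in any of the 6 comparisons, and 0 of 11 nuclear receptor coregulators did. Over all genes 1.09% to 12.0% passed upwards and 0.619% to 19.9% downwards in these comparisons. With upper-quartile scaling 1 coregulator passed upwards in DEHP FVB/N against DEHP C57BL/6J. With DEHP in C57BL/6J, 9 of the 10 chaperone genes had a ratio below 0, or 7 with equal totals, and the median was -0.34 against -0.01 over all genes. The most abundant of them, the constitutive Hsp70 gene Hspa8, had 11459 counts in vehicle C57BL/6J and 7743 in DEHP C57BL/6J. The Hsp90 genes Hsp90ab1 and Hsp90aa1 went from 5663 to 5324 and from 3744 to 2711 counts. In FVB/N 8 of the 10 were below 0, with a median of -0.20. Among the coregulators the most abundant were the coactivators Ncoa2 and Ncoa4 and the corepressor Ncor1, and in the DEHP comparison of C57BL/6J their ratios were 0.12, -0.02 and -0.02.

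Glucocorticoid-induced genes other than Fkbp5 were listed because Nr3c1 is their receptor. With DEHP in C57BL/6J all 11 had a ratio below 0, or 10 with equal totals, and the median was -0.45 against -0.01 over all genes. Nr3c1 itself was at 0.45, but its difference of 193 counts was within its SD of 219. Errfi1, an inhibitor of EGF receptor signalling, was the 1 that passed, where 1.15% of all genes passed downwards, and with equal totals 0 passed. It had 2736 counts in vehicle C57BL/6J and 1269 in DEHP C57BL/6J. The kinase gene Sgk1 went from 1329 to 1040 and the metallothionein gene Mt1 from 649 to 425 counts, and neither passed. In FVB/N 8 of 11 were below 0, with a median of -0.08. The phosphatase gene Dusp1 passed downwards, where 0.619% of all genes did, with 232 counts in vehicle FVB/N and 91.5 in DEHP FVB/N. In F2 C57BL/6J against vehicle C57BL/6J 2 of 11 passed downwards, where 10.2% of all genes did. They were Errfi1 and Nfkbia, the NF-kappaB inhibitor, with 400 and 359 counts in F2 C57BL/6J. That comparison crosses the sets of libraries, and Errfi1 was also low in vehicle FVB/N and DEHP FVB/N, at 236 and 209 counts. In the difference between the strains' responses Mt2, the other metallothionein gene, passed upwards at 1.04 and Dusp1 downwards at -1.20. There 4.45% of all genes passed upwards and 2.92% downwards. With equal totals 0 of the 11 passed upwards and 1 downwards.

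Of 6 estrogen-responsive genes 5 had enough counts, since Tff1 stayed below 1 count. None passed with DEHP in either strain, where at most 2.16% of all genes passed in a given direction. Between DEHP FVB/N and DEHP C57BL/6J, 4 of the 5 passed upwards, or 3 with equal totals, where 12.0% of all genes did, and the median was 1.37 against -0.07 over all genes. Between the vehicle groups 2 of the 5 passed upwards, Greb1 and Gdf15, where 7.50% of all genes did. Both comparisons cross the sets of libraries, so strain and set of libraries cannot be told apart in them. Sperm markers summed to 9869 in DEHP FVB/N and 80664 in DEHP C57BL/6J, and the part of tissue content was not tested. Greb1, an estrogen receptor cofactor, had counts of 263, 194, 317, 571 and 842 in the 5 conditions. Gdf15, a stress cytokine, had 28.3, 20.7, 33.0, 70.1 and 65.8. Ltf, the lactoferrin gene, and Slc9a3, a sodium-proton exchanger of the efferent ducts, were the other 2 that passed between the DEHP groups. The water channel Aqp9 had 1672 to 2070 counts, and its ratios of FVB/N to C57BL/6J were -0.07 between the vehicle groups and -0.31 between the DEHP groups.

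Among the other steroid-metabolising genes, 18 of 19 were in the table and 12 had a ratio for DEHP in C57BL/6J. Cyp17a1, the steroid 17-alpha hydroxylase, was the 1 that passed, downwards, where 1.15% of all genes did. It had 43.2 counts in vehicle C57BL/6J and 18.6 in DEHP C57BL/6J, whereas it had 136 in vehicle FVB/N and 241 in DEHP FVB/N. In FVB/N 0 of 12 passed with DEHP, where 2.16% of all genes passed upwards and 0.619% downwards. Against vehicle C57BL/6J, 4 of 12 genes passed downwards in F2 C57BL/6J, Hsd11b1, Hsd17b2, Hsd17b6 and Hsd17b10, where 10.2% of all genes did. The estrogen sulfotransferase gene Sult1e1 was the 1 that passed upwards, with 88.0 and 205 counts, where 4.10% of all genes did. Hsd11b1, which regenerates active glucocorticoid, had 692, 636, 111, 140 and 135 counts, and Hsd17b2, which inactivates estradiol and testosterone, 288, 261, 19.9, 18.3 and 19.3. Both, which the liver expresses strongly, were high where the liver markers were high, and the part of liver RNA in them was not tested. Vehicle FVB/N against vehicle C57BL/6J had 4 of 13 genes past the limit upwards, Srd5a3, Hsd17b3, Cyp17a1 and Sult1e1, and 4 of 13 downwards, the dehydrogenase genes named above, where 7.50% and 18.8% of all genes passed. In the difference between the strains' responses 4 of 14 passed, 2 in each direction, where 4.45% of all genes passed upwards and 2.92% downwards. Upwards these were Cyp17a1 at 1.99 and Hsd17b3 at 1.54, the latter with 2.57 and 1.07 counts in the C57BL/6J F1 conditions. Downwards these were Hsd17b6 at -1.18, with 4.29 and 1.61 counts in vehicle and DEHP FVB/N, and Cyp11a1 at -1.04, with at most 10.3 counts. Srd5a3, the third member of the reductase family, which acts on polyprenol, was higher in FVB/N with 75.3, 89.5, 82.0, 226 and 244 counts. The remaining abundant members were the 17-beta dehydrogenase genes Hsd17b12, Hsd17b11 and Hsd17b7 with means of 1168, 768 and 350.3 counts.

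Membrane progesterone receptors and estrogen-related receptors were the last lists. Of the 7 membrane progesterone receptors 0 of 6 with a ratio passed with DEHP in either strain. At most 2.16% of all genes passed in a given direction there. Pgrmc1 was the most abundant with 2202 to 4059 counts, followed by Paqr9 with 439, 621, 82.3, 33.5 and 50.0 counts. Paqr9 passed downwards in F2 C57BL/6J against both F1 conditions and in FVB/N against C57BL/6J with and without DEHP. In those comparisons 8.35% to 19.9% of all genes passed downwards. Like the liver markers, Paqr9 was high only in the reused C57BL/6J F1 libraries, and the part of liver RNA in it was not tested. Pgrmc2 had 202 to 239 counts. Paqr7 passed upwards in vehicle FVB/N against vehicle C57BL/6J with 312 and 104 counts, where 7.50% of all genes did. Of the estrogen-related receptors Esrra had 79.9 to 125 and Esrrg 84.3 to 102 counts and neither passed in any of the 6 comparisons, while Esrrb stayed under 10 counts.

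**Figure D5:**
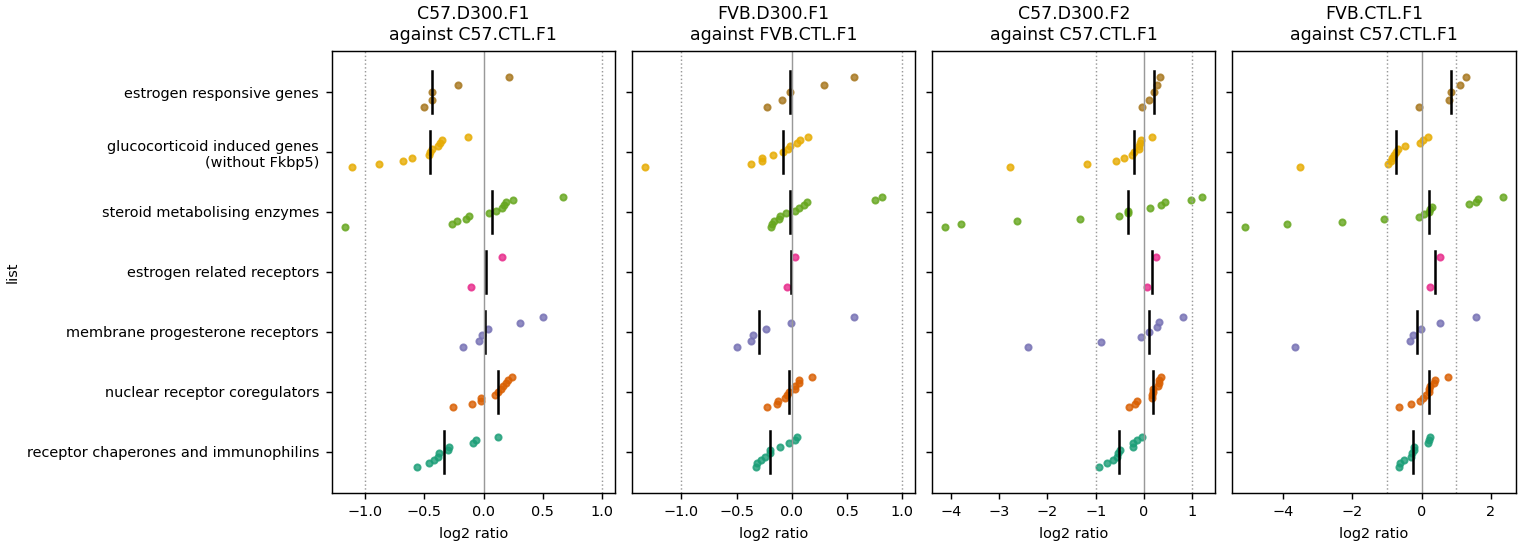
Log2 ratios (horizontal axes, linear, a range for each panel) of the genes of 7 lists in 4 comparisons, each dot a gene and each black bar the median of the list, with dotted lines at 1 log2 unit in each direction. In the first panel the glucocorticoid-induced list lies wholly below 0 (median -0.45), and in the last the estrogen-responsive list has its median at 0.86.

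The genes with the profile most like each of the 9 were found over the 5 conditions, as the smallest root mean square difference of centred log2 values among genes of similar mean. With 5 points that share their libraries this is a description. Esr1 was nearest to Ntn1 at 0.04 and Twsg1 at 0.05, the genes of netrin 1 and of a BMP-binding protein, and 658 of 7850 candidates lay within 0.2 of it. Nr3c1 was nearest to Dlc1 at 0.06 and to Kdr at 0.08, the latter the VEGF receptor of endothelium, with 120 of 8917 within 0.2. Srd5a1 was nearest to Cryz at 0.07 and Mocs2 at 0.09, with 43 of 10896. Srd5a2 had the rarest profile, with 2 of 10658 candidates within 0.2, Nptx1 at 0.15 and Gm7337 at 0.20. The nearest to the others were Il1bos for Esr2, Rnf8-cmtr1 for Gper1, Dnm3os for Pgr, Wdr81 for Nr3c2 and Grhl2 for Fkbp5. Within the set the closest pairs were Esr2 with Fkbp5 at 0.19 and Esr1 with Nr3c2 at 0.20, and Nr3c1 with Srd5a2 was the most distant at 1.41.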

How the data were processed

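Sperm swam out of incised cauda epididymides, RNA was extracted with TRIZOL and depleted of ribosomal RNA, and libraries were made with the TruSeq small RNA kit. The authors called bases with CASAVA 1.8.2, clipped adapters, kept reads of at least the minimum length they set, mapped them to mm10 with TopHat under a strand option and quantified them with Cuffdiff. Versions of both, the annotation release and the Cuffdiff options are not given in the sources used here. The deposited signal is an estimated count and a count variance for each gene and condition, combined by the authors over 5 libraries. Values were used where the status was OK, which left 71 genes without a value in at least 1 condition.

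Ratios, SDs of differences, marker sums and levels per kilobase were computed with Python 3.11.15, numpy 2.4.6 and pandas 2.3.3, and figures with matplotlib 3.10.9. The SD of a difference is the root of the summed variances, and for the difference of log2 ratios it was approximated from the relative variances. The calling steps were tested on simulated data. Gene positions and exon lengths come from GENCODE M21 on GRCm38, the assembly that mm10 names. Named are the 9 genes, for each the genes with the most alike profile, and from each list those past 1 log2 unit and the 3 of highest mean count. The genes, the lists and the comparisons were chosen with earlier results of these data known. The combined values hide the spread between libraries, and the errors cover counting and Cuffdiff's model only.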

Additional observations from a re-analysis of the deposited data

How the results depend on the processing

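Each count of genes past 1 log2 unit was recomputed with 3 other scalings, added counts of 0.1 or 10, no minimum or a minimum of 100 counts, a limit of 2 log2 units, the further demand that the difference exceed its SD, and values under 3 counts set to 3. Of these 70 recomputed counts 53 stayed within 1.5 times the value given and 17 did not. No ratio past the limit changed its sign. At 2 log2 units the counts were 0 for DEHP in FVB/N, 0 for F2 C57BL/6J against either F1 condition, 0 for vehicle FVB/N against vehicle C57BL/6J, 1 for DEHP FVB/N against DEHP C57BL/6J and 0 for the difference between strains. With 10 added the counts were 1 for F2 C57BL/6J against vehicle C57BL/6J, 1 for vehicle FVB/N against vehicle C57BL/6J and 2 for DEHP FVB/N against DEHP C57BL/6J. With a minimum of 100 they were 1, 1 and 3 in the same comparisons and 1 for F2 C57BL/6J against DEHP C57BL/6J. Vehicle FVB/N against vehicle C57BL/6J gave 1 with equal totals, 1 with the upper quartile and 1 when the SD had to be exceeded, and the difference between strains gave 2 with equal totals. The ratio of Gper1 in DEHP FVB/N against DEHP C57BL/6J was 0.76 with 10 added, and Srd5a1 in that comparison was -0.99 with median-of-ratios factors.

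The number of all genes past the limit moved by more than 1.5 times as follows. For DEHP in C57BL/6J 377 genes became 194 with 10 added, 789 with no minimum, 149 with a minimum of 100 and 49 at 2 log2 units, and for DEHP in FVB/N 457 became 238, 1135, 173 and 112. For the difference between strains 1295 became 585, 2375, 525 and 215, and 848 where the SD had to be exceeded. For F2 C57BL/6J against vehicle C57BL/6J 2441 became 3685 with no minimum, 1413 with a minimum of 100 and 717 at 2 log2 units. With that minimum and at that limit 1891 against DEHP C57BL/6J became 1073 and 623, 4489 between the vehicle groups became 2348 and 1764, and 5548 between the DEHP groups became 3019 and 1792.

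Scaling to equal totals moved the median of all genes by up to 0.31 log2 units, and the upper quartile by up to 0.22. The share of calls that were upwards went, with equal totals, from 48.8% to 69.1% for DEHP in C57BL/6J, 77.7% to 61.8% for DEHP in FVB/N, 28.8% to 58.9% for F2 C57BL/6J against vehicle C57BL/6J, 24.4% to 40.9% against DEHP C57BL/6J, 28.6% to 41.8% for vehicle FVB/N against vehicle C57BL/6J and 60.4% to 29.5% for the difference between strains. With the upper quartile it was 50.3%, 42.7% and 41.8% for F2 C57BL/6J against vehicle C57BL/6J, F2 C57BL/6J against DEHP C57BL/6J and vehicle FVB/N against vehicle C57BL/6J. The causes were not tested. With the longest transcript in place of merged exons, 6 of 9 ranks per kilobase in vehicle C57BL/6J were kept.

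No paired analysis was possible because the table holds 1 combined value per condition, and leaving out single libraries was not run for the same reason. Counting limits Gper1 and Pgr most, whose relative SDs were 0.797 to 1.46 and 0.368 to 0.544.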
